A study of Mus musculus with 36 samples.

Results

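The genes of the proteasome were followed in ribosome-bound RNA of mouse cortex across genotype and time after a swim. Members were the protein-coding genes whose symbol starts with Psma, Psmb, Psmc, Psmd, Psme, Psmf or Psmg and a digit, which gave 50 of the 55470 gene rows. Another 4 matching symbols were pseudogenes and were left out. Of the 50 genes, 41 held enough counts for the statistical fit and 9 did not. The rule also takes in Psmc3ip, a meiotic recombination factor named for its binding to the subunit Psmc3, which is not itself a subunit. Counts, medians and scores over the 50 or 41 genes include it, and it is among the genes that fell at 4 h in both genotypes.

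The libraries came from RiboTag mice, in which Cre recombinase under the Camk2a promoter switches the ribosomal protein Rpl22 to an HA-tagged form in forebrain excitatory neurons, so that an anti-HA antibody pulls down their ribosomes. Shank3 mice had the genotype Shank3(ΔC/+);HA-Rpl22(f/+);Camk2a-Cre(+/-), with 1 Shank3 allele mutated at its C-terminal part. WT mice were their littermates of genotype Shank3(+/+);HA-Rpl22(f/+);Camk2a-Cre(+/-), so both genotypes carried the tag and the Cre, and all were on the C57BL6JL background. The extraction protocol writes the tag allele as f/f. Naive mice stayed in their home cages. The others swam in water at 25 °C, for 5 min by 1 label and 6 min by another, and were sacrificed 1 h or 4 h later. Cohort 1 held 3 WT naive, 3 Shank3 naive, 6 WT 1 h and 5 Shank3 1 h libraries. Cohort 2 held 4 WT naive, 4 Shank3 naive, 5 WT 4 h and 6 Shank3 4 h libraries. Time after the swim and cohort therefore cannot be told apart, and each swim group was set against the naive mice of its own cohort. Sex and age are not given in the labels. Nor do they say which animal each library is from, so a p-value covers only the spread from library to library, which may be technical.

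The proteasome is the large protease that degrades proteins marked with ubiquitin chains. Its core particle stacks rings of alpha and beta subunits, and the beta subunits Psmb5, Psmb6 and Psmb7 carry the peptide-cleaving sites inside the chamber. A regulatory particle caps the core, with a base of Psmc ATPases that unfold substrates and a lid that removes their ubiquitin. In neurons proteasomes work in the soma, dendrites and synapses, where protein turnover is part of synaptic plasticity.

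Library totals ran from 883870 to 3520018 counts, and the 50 genes together held 125799 counts, 0.221% of all. Shank3 counts were 4 to 20 per library in WT naive and WT 1 h mice and 14 to 118 in WT 4 h mice, against 9 to 34 and 19 to 146 in the matching Shank3 groups. Counts outside the mutated part of the allele check nothing about the genotype. All 8 pyramidal neuron markers were detected in every group, and their summed level ran from 1359 to 2143 CPM (counts scaled to a common library size and for library composition) in naive and 1 h libraries and from 2212 to 3881 CPM in 4 h libraries. The 7 astrocyte markers summed to 28.3 to 103.7 CPM in naive and 1 h libraries and 92.9 to 134 CPM at 4 h, and the 7 oligodendrocyte markers to 71.6 to 127 and 116 to 325 CPM. Endothelial markers stayed at or under 2.86 CPM, with the defining gene Cldn5 at 0 in every group. Of the 8 microglia markers P2ry12 was at 0 in all groups except Shank3 4 h, and the summed level, 163 to 1084 CPM, was carried by the 1 marker in the fit. The 7 interneuron markers summed to 3.7 to 85.2 CPM. In such bulk RNA fewer cells of a type and less RNA per cell cannot be told apart.

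Another measure moved with the swim. The kit keeps the strand of each RNA, but the sources do not say whether the counting used it. Over pairs of a coding and an antisense gene that overlap, the percent of counts on the coding rows, called the pair share below, was 10.7% to 15.0% in the 14 naive libraries, 11.5% to 17.0% in the 11 libraries at 1 h and 17.0% to 33.1% in the 11 at 4 h. In every library most counts of these pairs thus lay on the antisense rows. Whether the counts were taken on the strand opposite to the RNA was not tested, and if they were, each CPM below would count reads of the opposite strand, also for genes that face no other gene. Reads of a gene and of its antisense partner cannot be told apart here, which touches most directly the 13 proteasome genes in the fit with an exon opposite another gene. Of the other 28, 24 face no gene and 4 face one only with an intron. For Psmb7, 7779 counts stood against 93049 on the opposite gene Nek6, with 405 bases of exon overlap. The row of Psmd3 held 1580 counts against 17756 on Gm12356, where the exons overlap by only 17 bases. The part of the pair share in the results below was not tested beyond the fits that are given beside them.

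Levels are compared between genes per kb of exon. Among the 14 naive libraries the base ATPases Psmc5 and Psmc1 were highest, at 99.3 ± 27.0 and 89.3 ± 7.14 CPM per kb (SD, n = 14). Their spreads overlap. The lid subunit Psmd7 followed at 78.0 ± 14.3 CPM per kb, and Psmc3ip was at 71.6 ± 11.9 CPM per kb (SD, n = 14 each).

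Levels differed widely within each ring and subcomplex. Among naive libraries the alpha ring ran from Psma4 at 17.8 ± 3.39 down to Psma1 at 2.82 ± 1.82 CPM per kb (SD, n = 14). Over all 36 libraries, whose means also carry the swim groups, it ran from Psma5 at 26.9 ± 12.4 to Psma3 at 6.72 ± 3.10 CPM per kb. The structural beta subunits ran from Psmb4 at 18.7 ± 15.0 to Psmb2 at 3.26 ± 3.38 CPM per kb (SD, n = 36). Among the catalytic subunits, the trypsin-like Psmb7 was at 34.9 ± 6.26 CPM per kb, the caspase-like Psmb6 at 12.0 ± 6.62 and the chymotrypsin-like Psmb5 at 10.9 ± 8.48 (SD, n = 36). The mean less 1 SD of Psmb7 lay above the mean plus 1 SD of the other catalytic subunits, and Psmb7 is the subunit whose exons face Nek6. The base ran from Psmc5 at 113 ± 25.2 to Psmc6 at 6.84 ± 3.00, and from the scaffold Psmd2 at 20.9 ± 7.37 to the scaffold Psmd1 at 3.57 ± 1.62 CPM per kb. The lid ran from Psmd7 at 68.6 ± 15.8 to Psmd11 at 3.32 ± 1.36 CPM per kb (SD, n = 36), while in naive libraries its lowest was Psmd8 at 1.68 ± 0.99 (SD, n = 14).

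Genes of specialised proteasomes held few counts on their own rows. The immunoproteasome subunits Psmb8 and Psmb9, which replace catalytic subunits in immune cells, held 4 and 29 counts in all 36 libraries. Both have exons opposite another gene. Gm20496, the antisense row facing Psmb8, held 458 counts, and Tap1, facing Psmb9, held 25. The thymus subunit Psmb11 held 36 counts, the testis alpha subunit Psma8 held 3, and Psme2b, a near copy of Psme2, held 1. Psmb10, the third immunoproteasome subunit, was low but measurable at 2.22 ± 1.68 CPM per kb (SD, n = 36). The core-assembly chaperones Psmg1, Psmg2, Psmg3 and Psmg4 held 171, 119, 17 and 24 counts and complete the 9 genes outside the fit. A count of 3 in a library equals 0.501 to 5.19 CPM, so single-library values under this range are at the floor. This range covers counting error only.

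Among the activators, which open the gate of the core, Psme1 was highest at 13.5 ± 3.88 CPM per kb and Psme4 at 0.948 ± 0.451 was the lowest in the fit (SD, n = 36). Among the assembly chaperones of the regulatory particle Psmd10 was highest, at 4.91 ± 1.86 CPM per kb.

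**Figure D1:**
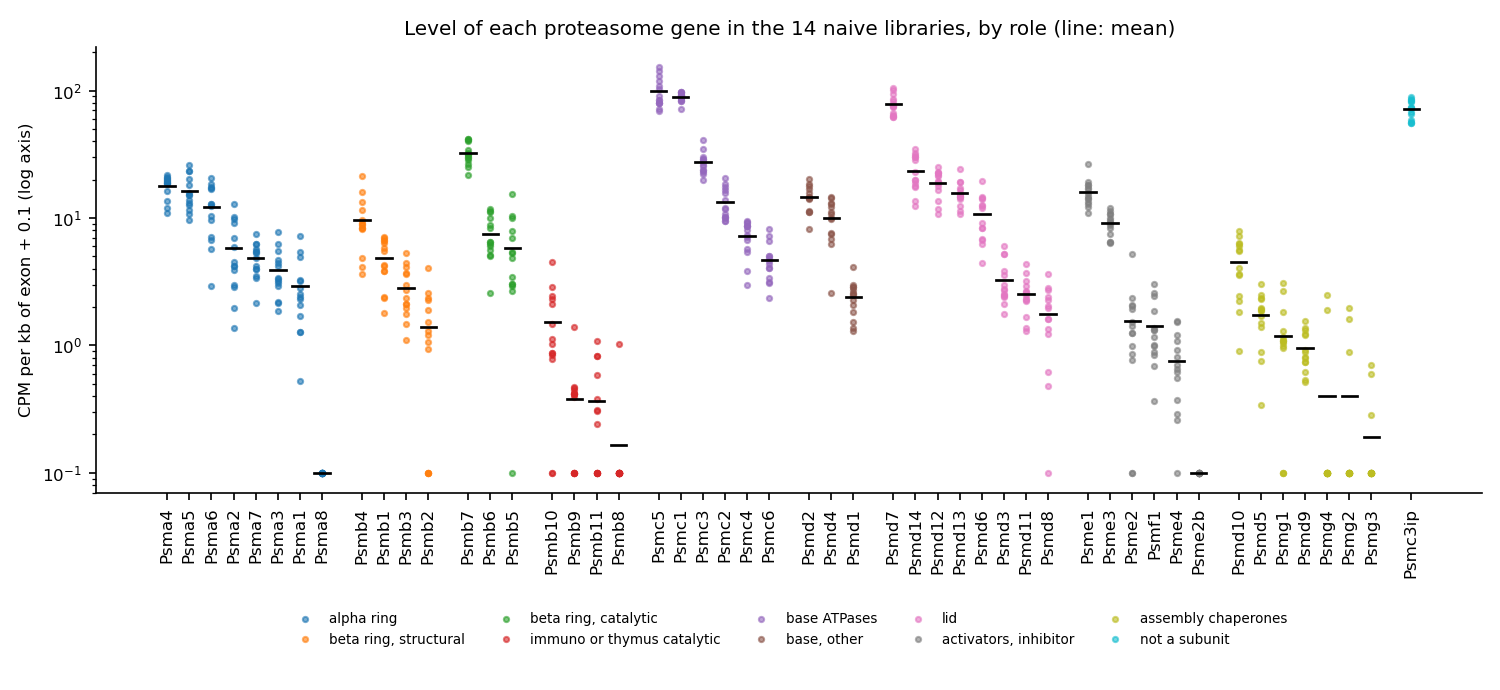
Level of each of the 50 genes in the 14 naive libraries, in CPM per kb of exon plus 0.1 on a log axis, grouped and coloured by role. Each dot is a library and each line the mean; Psmc5, at a mean of 99.3, and Psmc1, at 89.3, stand at the top, and Psma8, Psmb8 and Psme2b lie at the bottom.

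Promoter stretches are shown for the 3 genes that rose at 4 h in both genotypes and hold a match to TGACNNNGC, the core of the antioxidant response element, which the transcription factors Nfe2l1 and Nfe2l2 bind. Nfe2l1 is known as the main activator of proteasome genes when proteasome function falls. Sequences and starts are from RefSeq, build GRCm38.p6, 5′ to 3′ on the gene's strand, with the match in capitals. The stretches are chr14:54618023-54618102 for Psmb5 on the minus strand, chr11:70525288-70525356 for Psmb6 on the plus strand and chr14:45329574-45329666 for Psmc6 on the plus strand, and none overlaps an annotated exon.
Psmb5: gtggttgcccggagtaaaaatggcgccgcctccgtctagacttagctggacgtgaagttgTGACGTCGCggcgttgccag
Psmb6: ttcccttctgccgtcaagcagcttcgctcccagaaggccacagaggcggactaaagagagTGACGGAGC
Psmc6: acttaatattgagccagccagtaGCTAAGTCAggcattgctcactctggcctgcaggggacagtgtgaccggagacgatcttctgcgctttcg
The match lies 47 to 39 bases before the start in Psmb5, 9 to 1 in Psmb6, and 227 to 219 in Psmc6, where it is on the opposite strand.

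The motif was not more common in proteasome genes than elsewhere by count. In the 250 bases before the start, on both strands, TGACNNNGC was found in 5 of the 42 matched genes (11.9%) and in 11.52% of the 27025 genes in the table. CCAAT, the box bound by NF-Y, was found in 15 of 42 (35.7%) against 37.49%, and TGACGTCA, the cAMP response element, in 0 of 42 against 1.77%. TGACNNNGC stood in 3 of the 18 matched genes that rose at 4 h in both genotypes and in 2 of the 17 other matched genes in the fit. Psma8, Psmb1, Psmb2, Psmb7, Psmc3, Psmd3, Psmd7 and Psmg2 had no entry.

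The first comparison asked whether proteasome genes differ between Shank3 and WT mice. None of the 41 genes passed an adjusted p of 0.05 at any time in edgeR's quasi-likelihood test with Benjamini-Hochberg adjustment over 11341 genes. None reached an unadjusted p of 0.05 either, and DESeq2 called none. Of all genes the test called 0.00882% in the naive comparison, 0% at 1 h and 0.00882% at 4 h. No proteasome gene had all Shank3 libraries above or all below the WT ones (naive libraries of both cohorts together), where 0.0265%, 0.0882% and 0.106% of all genes were higher and 0.00882%, 0.097% and 0.097% lower. The log2 difference, Shank3 less WT, ran from -0.77 (Psme4) to 0.60 (Psmb4) in naive mice, with 25 of 41 genes above 0. It ran from -0.64 (Psmb10) to 0.22 (Psmd3) at 1 h, with 13 of 41 above 0, and from -0.18 (Psmd7) to 0.50 (Psmf1) at 4 h, with 29 of 41 above 0.

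The precision limits how small a difference could be seen. The median standard error was 0.278 for naive mice, 0.231 for 1 h and 0.211 for 4 h, which gives 95% margins of 0.569, 0.474 and 0.433 on the log2 scale. These are margins at the median only. The standard errors ran from 0.128 (Psmc1) to 1.08 (Psmb2) in the naive comparison, from 0.14 to 0.575 at 1 h and from 0.139 to 0.371 at 4 h, with the same genes at the ends.

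The genes nearest to the threshold show how the genotypes overlapped. Psmb6 was at 16.0 to 28.3 CPM with a median of 20.8 in the 6 WT 1 h libraries, and at 12.5, 17.0, 22.1, 8.72 and 16.8 CPM in Shank3 1 h replicates 1 to 5. The ranges overlap between 16.0 and 22.1 CPM, and the log2 difference of -0.51 had an unadjusted p of 0.0559 by edgeR. Psme4 encodes PA200, a core activator of the nucleus. It was at 12.1, 2.30, 1.57, 6.92, 9.21, 8.16 and 12.0 CPM in WT naive replicates 1 to 7 and at 5.06, 4.65, 3.80, 1.33, 4.33, 5.94 and 0 CPM in the Shank3 naive ones. In cohort 2 every WT value lay above every Shank3 value, while in cohort 1 they were mixed. The Shank3 values of cohort 2 rest on 1, 8, 5 and 0 counts. The log2 difference over both cohorts was -0.77 with a standard error of 0.41 (edgeR, unadjusted p = 0.0655, adjusted p = 1). Psmf1, an inhibitor of the core, gave the lowest p at 4 h, 0.0643 by edgeR before adjustment, at a log2 difference of 0.50.

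One hour after the swim, 19 of 41 proteasome genes had risen in WT mice and none had fallen, where the same edgeR test called 34.2% of all genes (16.9% rose and 17.3% fell). The median log2 fold change was 0.82 for the proteasome genes and 0.24 for all genes. In Shank3 mice 3 genes rose and 1 fell, where the test called 12.2% of all genes (4.99% rose and 7.25% fell), and the medians were 0.44 and 0.09. Whether the genotypes responded differently is given with the interaction below.

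The alpha ring, which forms the gate and outer wall of the core, held the clearest rises at 1 h. In WT mice 6 of its 7 genes in the fit rose, with a median log2 fold change of 0.95. Psma3 was at 6.92, 8.05 and 10.99 CPM in WT naive replicates 1 to 3 and at 12.6 to 45.7 CPM, median 31.2, in the 6 WT 1 h libraries. In Shank3 mice Psma3 was at 12.1, 8.14 and 12.7 CPM in naive replicates 1 to 3 and at 20.6, 30.7, 42.7, 28.8 and 31.4 CPM in 1 h replicates 1 to 5. In both genotypes every 1 h library lay above every naive one. The log2 fold change was 1.79 (SE 0.39, edgeR adjusted p = 0.00151) in WT and 1.495 (SE 0.35, adjusted p = 0.0107) in Shank3 mice.

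Psma2 rose as well in both genotypes, by 1.77 (SE 0.43, edgeR adjusted p = 0.0031) and 1.21 (SE 0.39, adjusted p = 0.0379) on the log2 scale. Psma1 rose by 2.2 (SE 0.57, edgeR adjusted p = 0.00462) in WT mice, from 3.46, 3.45 and 4.71 CPM to 6.29 to 28.3 CPM with a median of 14.7. These naive values rest on 2, 3 and 3 counts, so the size of this rise is uncertain. In Shank3 mice Psma1 missed the threshold narrowly, with a log2 fold change of 1.47 (SE 0.51, adjusted p = 0.0502).

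Outside the alpha ring, Psmd14 rose in both genotypes at 1 h. It encodes Rpn11, the lid deubiquitinase that cuts chains off substrates. Its levels were 38.0, 49.5 and 34.5 CPM in WT naive libraries and 49.1 to 124 CPM, median 92.4, at 1 h, with 1 swim library inside the naive range. In Shank3 mice 84.9, 50.0 and 55.7 CPM became 89.1, 112, 111, 114 and 109 CPM, with no overlap. The log2 fold changes were 1.17 (SE 0.27, edgeR adjusted p = 0.00226) and 0.74 (SE 0.25, adjusted p = 0.0463).

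Psmc5 and Psmb7, abundant genes with small spread, also rose in WT mice. Psmc5, an ATPase, went from 100.3, 110.4 and 95.7 CPM to 144 to 235 CPM with a median of 166 (log2 fold change 0.77, SE 0.22, edgeR adjusted p = 0.00838). The catalytic Psmb7 went from 74.3, 106 and 86.3 CPM to 108 to 178 CPM with a median of 134 (0.63, SE 0.20, adjusted p = 0.0162). Every 1 h library of WT mice was above every naive one for both. Nek6, which faces Psmb7, rose by 0.76 (SE 0.24, edgeR adjusted p = 0.0160) in WT mice. In Shank3 mice Nek6 had 0.94 (SE 0.25) and Psmb7 0.22. The part of Nek6 in the Psmb7 values was not tested. The catalytic Psmb6 rose by 1.01 (SE 0.38, adjusted p = 0.0392), again without overlap, whereas Psmb5 had a log2 fold change of 0.19 (SE 0.58).

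The 3 base subunits without ATPase activity that the symbol rule takes in all rose in WT mice at 1 h. They are the scaffolds Psmd1 and Psmd2 and the ubiquitin receptor Psmd4, with log2 fold changes of 0.88, 0.83 and 0.95. The ATPases Psmc2 (0.88) and Psmc6 (0.95), the lid subunit Psmd8 (1.93), the structural Psmb4 (1.35), the activator Psme3 (0.75) and the chaperone Psmd5 (1.01) completed the rises outside the alpha ring. The lid subunit Psmd13 fell in Shank3 mice, from 57.6, 63.9 and 49.3 CPM to 43.0, 37.8, 35.4, 34.0 and 37.9 CPM (log2 fold change -0.60, SE 0.20, edgeR adjusted p = 0.0477, and -0.11 with total counts only).

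Some genes had their swim and naive libraries fully apart at 1 h. In WT mice 8 of 41 genes were higher and 1 was lower in every swim library than in every naive one, where 10.6% and 13.9% of all genes were. In Shank3 mice 9 of 41 were higher and 2 were lower, where 12.4% and 16.2% of all genes were.

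Single libraries moved the 1 h counts. The count of called genes in WT mice was 10 without WT naive replicate 1, 7 without WT naive replicate 3 and 8 without WT 1 h replicate 2. Calls of Psma1, Psma2, Psma3, Psmc2, Psmc5 and Psmd14 were kept whichever library was left out, and the other 13 lost the threshold without at least 1 library. In Shank3 mice the count was 0 without Shank3 naive replicate 2. Omitting replicate 3 of the Shank3 naive group, or replicate 3 at 1 h, left 1. Omitting replicates 1 or 5 of WT naive, 1 of Shank3 naive, or 2, 4 or 5 of Shank3 1 h left 2 each. None of the 4 calls in Shank3 mice was kept in all of these fits. With the pair share in the model, WT mice kept 8 of the 19 rises, and 8 genes rose and 1 fell in all, where 12.5% of all genes rose and 9.24% fell. In Shank3 mice 2 rose and 1 fell, where 5.41% and 6.59% did.

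At 4 h after the swim proteasome genes of most roles had risen in both genotypes. In WT mice 21 of 41 rose and 4 fell, where 56% of all genes were called (29% rose and 26.9% fell). In Shank3 mice 25 rose and 4 fell, where 62.1% of all genes were called (32.7% rose and 29.4% fell). The median log2 fold change was 0.65 in WT and 0.80 in Shank3 mice, against 0.23 and 0.22 over all genes. All 21 genes that rose in WT mice also rose in Shank3 mice. The genes held 0.145% ± 0.035 of the counts in WT naive mice of cohort 2 (SD, n = 4) and 0.304% ± 0.059 in WT 4 h mice (SD, n = 5). In Shank3 mice the share was 0.127% ± 0.046 (SD, n = 4) and 0.324% ± 0.062 (SD, n = 6). These shares are not scaled for library composition. With libraries scaled by total counts only, the median log2 fold change of the 41 genes at 4 h was 1.42 in WT and 1.73 in Shank3 mice. For all genes in the fit it was 0.98 and 1.17, so much of the change in share was common to other genes.

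A score per library, the mean over the 41 genes of log2 CPM less each gene's mean, shows how the libraries lay. It was -0.63 to 0.11 in WT naive and -0.47 to 0.03 in Shank3 naive libraries of cohort 2, and 0.15 to 0.70 in WT 4 h and 0.37 to 0.75 in Shank3 4 h libraries. In both genotypes every 4 h library was above every naive library of its cohort. At 1 h the groups overlapped in WT mice, at -0.59 to 0.39 against -0.94 to -0.35 in naive libraries. In Shank3 mice they did not, at -0.22 to 0.24 against -0.60 to -0.36. Naive libraries of cohort 1 were lower on average than those of cohort 2, at -0.66 and -0.48 against -0.20 and -0.26 for WT and Shank3. No test was made on the score, since its genes were chosen.

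**Figure D2:**
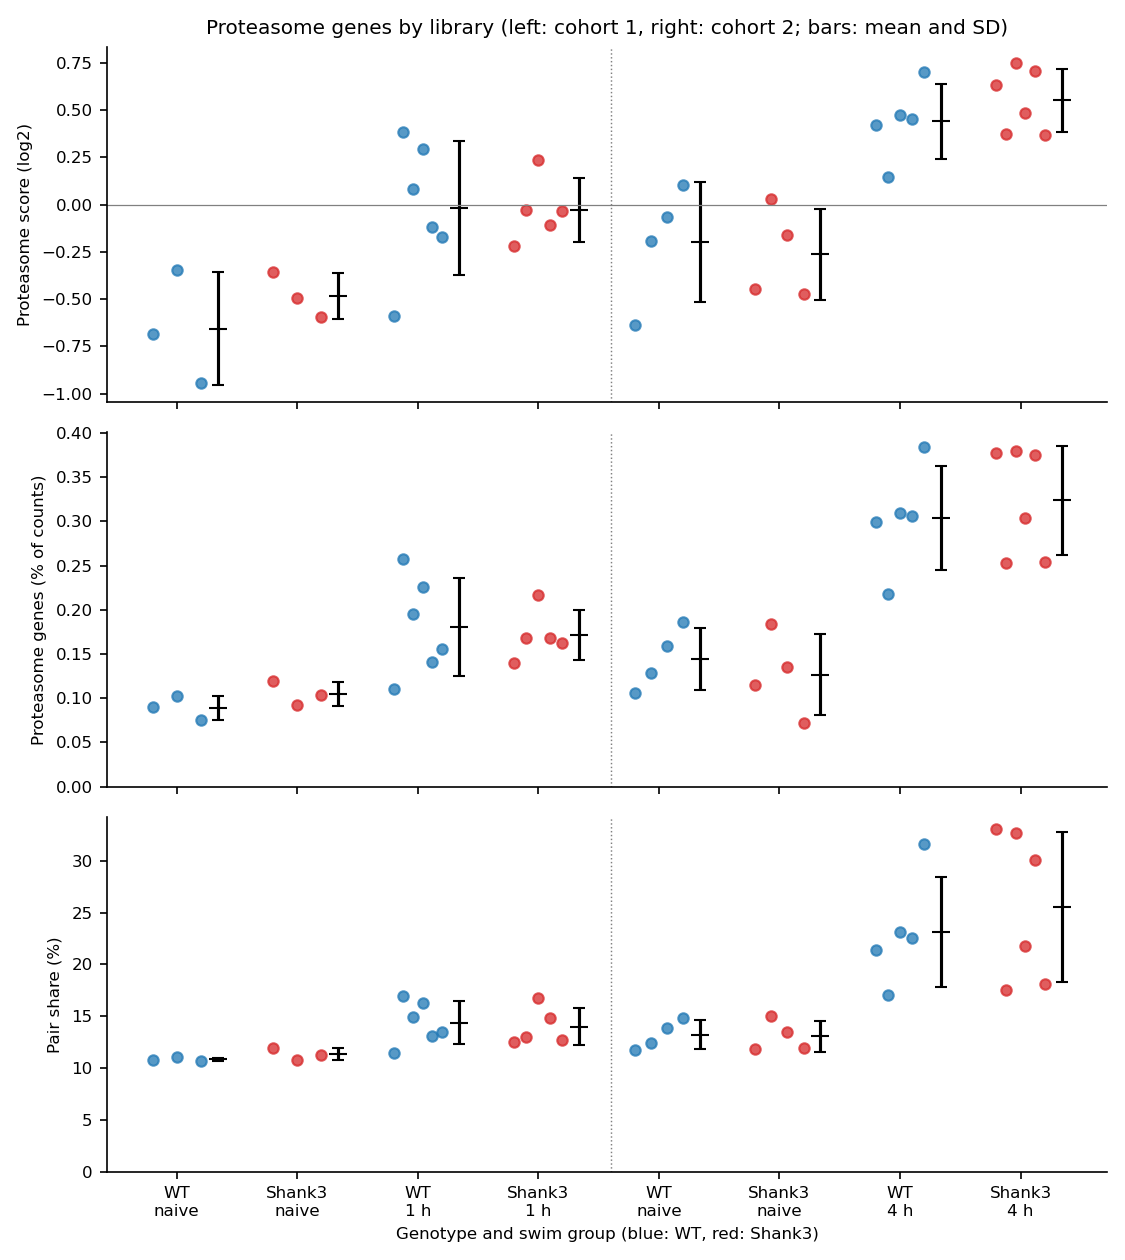
Proteasome score (log2), percent of counts on the 50 genes and pair share (percent) in each of the 36 libraries by group, with the mean and SD beside the dots; blue is WT and red is Shank3, and the dotted line parts cohort 1 from cohort 2. All 3 measures are highest in the 4 h groups, where the score runs from 0.15 to 0.75 and the pair share from 17.0% to 33.1%.

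In the alpha ring, 6 of 7 genes in the fit rose in both genotypes, with medians of 1.18 and 1.19. Psma1 was at 9.23, 6.58, 6.80 and 20.9 CPM in WT naive replicates 4 to 7 and at 38.3, 24.0, 36.2, 44.2 and 50.2 CPM in WT 4 h replicates 1 to 5. In Shank3 mice Psma1 was at 9.27, 15.7, 14.3 and 7.16 CPM in naive replicates 4 to 7 and at 30.3 to 57.0 CPM, median 47.1, in the 6 libraries at 4 h. Neither genotype had a swim library inside the naive range. The log2 fold changes were 1.84 (SE 0.36, edgeR adjusted p = 6.93e-05) and 1.91 (SE 0.34, adjusted p = 1.68e-05).

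Psma7 showed the same separation with less spread. It was at 16.2, 11.9, 19.1 and 18.9 CPM in WT naive and 31.3, 32.0, 37.5, 41.4 and 51.2 CPM in WT 4 h libraries (log2 fold change 1.21, SE 0.24, edgeR adjusted p = 8.59e-05). In Shank3 mice it was at 11.9, 14.6, 16.6 and 22.9 CPM and rose to 33.7 to 59.8 CPM, median 44.3 (1.51, SE 0.24, adjusted p = 3.95e-06). Psma5, Psma6, Psma2 and Psma3 also rose in both genotypes, by 1.18, 1.36, 0.90 and 1.07 in WT and 1.19, 1.47, 1.08 and 0.80 in Shank3 mice on the log2 scale. Psma4 was the exception, at -0.11 (SE 0.18) and 0.14 (SE 0.17), neither past the threshold. Its exons face those of AY074887, which held 5451 counts against 3002 on Psma4. AY074887 rose by 1.53 (SE 0.27, edgeR adjusted p = 2.24e-05) in WT and 1.15 (SE 0.26, adjusted p = 0.000272) in Shank3 mice.

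The catalytic subunits did not move together. Psmb5, the chymotrypsin-like subunit that proteasome inhibitor drugs target, was at 2.31, 2.63, 6.12 and 8.97 CPM in WT naive and 12.2, 11.8, 14.7, 16.7 and 26.4 CPM in WT 4 h libraries. In Shank3 mice Psmb5 was at 2.65, 7.03, 4.75 and 4.30 CPM and then at 9.37 to 30.1 CPM with a median of 20.0. All 4 h libraries were above the naive ones, by 1.66 (SE 0.47, edgeR adjusted p = 0.00347) and 1.97 (SE 0.46, adjusted p = 0.000451) on the log2 scale.

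Psmb6 rose by 0.94 (SE 0.28, edgeR adjusted p = 0.0057) in WT and 1.42 (SE 0.29, adjusted p = 7.49e-05) in Shank3 mice, also without overlap. Psmb7, in contrast, lay at 91.2, 108, 143 and 142 CPM in WT naive and 135, 122, 116, 129 and 113 CPM in WT 4 h libraries, fully within the naive range. Its log2 fold change was 0.02 (SE 0.18) in WT and -0.10 (SE 0.17) in Shank3 mice. The opposite gene Nek6 had 0.01 (SE 0.22) and -0.41 (SE 0.21). Of the immunoproteasome genes only Psmb10 was in the fit. It was at 1.15, 1.32, 7.48 and 3.99 CPM in WT naive and 6.55, 5.17, 3.59, 2.44 and 9.35 CPM in WT 4 h libraries, near the floor and overlapping (0.49, SE 0.54). In Shank3 mice Psmb10 rose, from 1.33, 3.79, 4.75 and 0 CPM to 1.85 to 12.5 CPM with a median of 5.85, also overlapping (1.31, SE 0.56, edgeR adjusted p = 0.0398).

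The structural beta subunits rose in both genotypes except Psmb1. Psmb4 had log2 fold changes of 1.80 (SE 0.37, edgeR adjusted p = 0.000161) and 1.56 (SE 0.35, adjusted p = 0.00027), Psmb3 of 1.46 and 1.34, and Psmb2 of 1.71 and 1.98. In Psmb4 WT 4 h replicate 2, at 28.7 CPM, lay within the naive range of 9.23 to 30.9 CPM. Psmb2 was measured on few counts, with 0 CPM in WT naive replicate 4. Psmb1 rose in Shank3 mice by 0.84 (SE 0.28, adjusted p = 0.0103) and had 0.10 (SE 0.28) in WT mice.

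In the base the scaffolds Psmd1 and Psmd2 and the ubiquitin receptor Psmd4 rose in both genotypes. Psmd1 had log2 fold changes of 1.13 (SE 0.25, edgeR adjusted p = 0.000246) in WT and 1.33 (SE 0.24, adjusted p = 2.4e-05) in Shank3 mice. Psmd2 had 0.93 and 0.87, and Psmd4 0.65 and 0.70.

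The 6 ATPases of the base divided. Psmc3, Psmc4 and Psmc6 rose in both genotypes, by 0.74, 1.41 and 0.95 in WT and 0.55, 1.41 and 1.13 in Shank3 mice on the log2 scale. Psmc2 had 0.41 and 0.35 and Psmc5 0.00 and 0.21, none past the threshold. For Psmc5 the WT naive libraries were at 118, 165, 198 and 212 CPM and the WT 4 h libraries at 189, 167, 183, 167 and 163 CPM, inside that range. Psmc1 was at 176, 187, 179 and 170 CPM in Shank3 naive libraries and 113 to 168 CPM, median 131, at 4 h, with no overlap. Its log2 fold change was -0.40 (SE 0.15, edgeR adjusted p = 0.0198) and turned to 0.53 (edgeR adjusted p = 0.0075) when libraries were scaled by total counts only.

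In the lid, Psmd8 had the largest rise among the genes in both genotypes. It encodes Rpn12, which joins the lid last and completes it. WT naive replicates 4 to 7 were at 1.15, 6.58, 10.9 and 7.97 CPM and WT 4 h replicates at 21.0, 15.1, 31.6, 27.2 and 49.2 CPM. Shank3 naive libraries were at 0, 5.95, 8.31 and 5.73 CPM and Shank3 4 h libraries at 19.8 to 48.9 CPM with a median of 36.0. No swim library overlapped a naive one. The naive libraries held few counts of Psmd8, at 1, 5, 16 and 8 in WT and 0, 11, 7 and 4 in Shank3 mice. The log2 fold changes were 2.04 (SE 0.42, edgeR adjusted p = 0.000151) and 2.75 (SE 0.44, adjusted p = 4.735e-06).

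Psmd11 and Psmd3 also rose in both genotypes, by 0.93 and 0.96 in WT and 0.69 and 1.42 in Shank3 mice. The row opposite Psmd3, Gm12356, fell by 1.56 and 1.63 on the log2 scale. Psmd6, Psmd12 and Psmd14 did not pass the threshold in either genotype, with log2 fold changes between 0.11 and 0.38. Psmd7, a lid partner of Psmd14, went from 171, 142, 139 and 152 CPM in Shank3 naive to 92.0 to 136 CPM, median 112, in Shank3 4 h libraries.

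The falls of Psmd7, Psmd13 and Psme1 turned to values above 0 when libraries were scaled by total counts only. Psmd7 fell by 0.43 in WT and 0.41 in Shank3 mice on the log2 scale, but was at 0.31 and 0.54 with total counts only. Psmd13 fell by 0.58 in WT mice (SE 0.18, edgeR adjusted p = 0.00769) and was at 0.23 with total counts only. Psme1, a subunit of the interferon-induced activator PA28, fell by 0.59 and 0.68, and was at 0.16 and 0.31 with total counts only. That scaling moves the median of all genes to 0.98 in WT and 1.17 in Shank3 mice at 4 h, and under it 34 and 39 of the 41 genes rose and none fell. Among all genes 57.1% and 63.4% then rose.

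The other activators differed from Psme1. Psme3, the nuclear PA28 gamma, rose by 0.83 (SE 0.21, edgeR adjusted p = 0.00145) in WT and 0.56 (SE 0.20, adjusted p = 0.0169) in Shank3 mice. Psme4 was at 1.33, 4.33, 5.94 and 0 CPM in Shank3 naive replicates 4 to 7 and at 7.24 to 15.4 CPM, median 11.6, at 4 h, a log2 rise of 1.76 (SE 0.41, adjusted p = 0.000388). In WT mice Psme4 was at 6.92, 9.21, 8.16 and 12.0 CPM in naive and 8.42, 8.94, 11.4, 14.3 and 10.2 CPM in 4 h libraries (0.24, SE 0.34). The 4 h libraries of both genotypes thus spanned about the same range, while the naive ones of cohort 2 did not overlap. That separation rests on 1, 8, 5 and 0 counts in Shank3 naive replicates 4 to 7. Replicates 6 and 7 held 13.5% and 38.6% ribosomal RNA counts. Psme2 rose in Shank3 mice by 1.79 (SE 0.52, adjusted p = 0.00344) on 0 to 3.24 CPM in naive libraries. Psme2b, its near copy, held only 1 count, in WT 1 h replicate 3. How reads that match both genes were assigned was not tested.

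Assembly chaperones in the fit did not pass the threshold at 4 h. Psmd5, Psmd9 and Psmd10 had log2 fold changes of 0.61, 0.54 and -0.04 in WT and 0.49, 0.55 and 0.05 in Shank3 mice. Psmc3ip, which is no subunit, fell in both, from 152, 133, 101 and 107 CPM to 69.7, 80.0, 54.4, 60.9 and 37.1 CPM in WT mice (log2 fold change -1.03, SE 0.22, edgeR adjusted p = 0.000268). It kept a negative sign with total counts only, at -0.28 and -0.18.

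**Figure D3:**
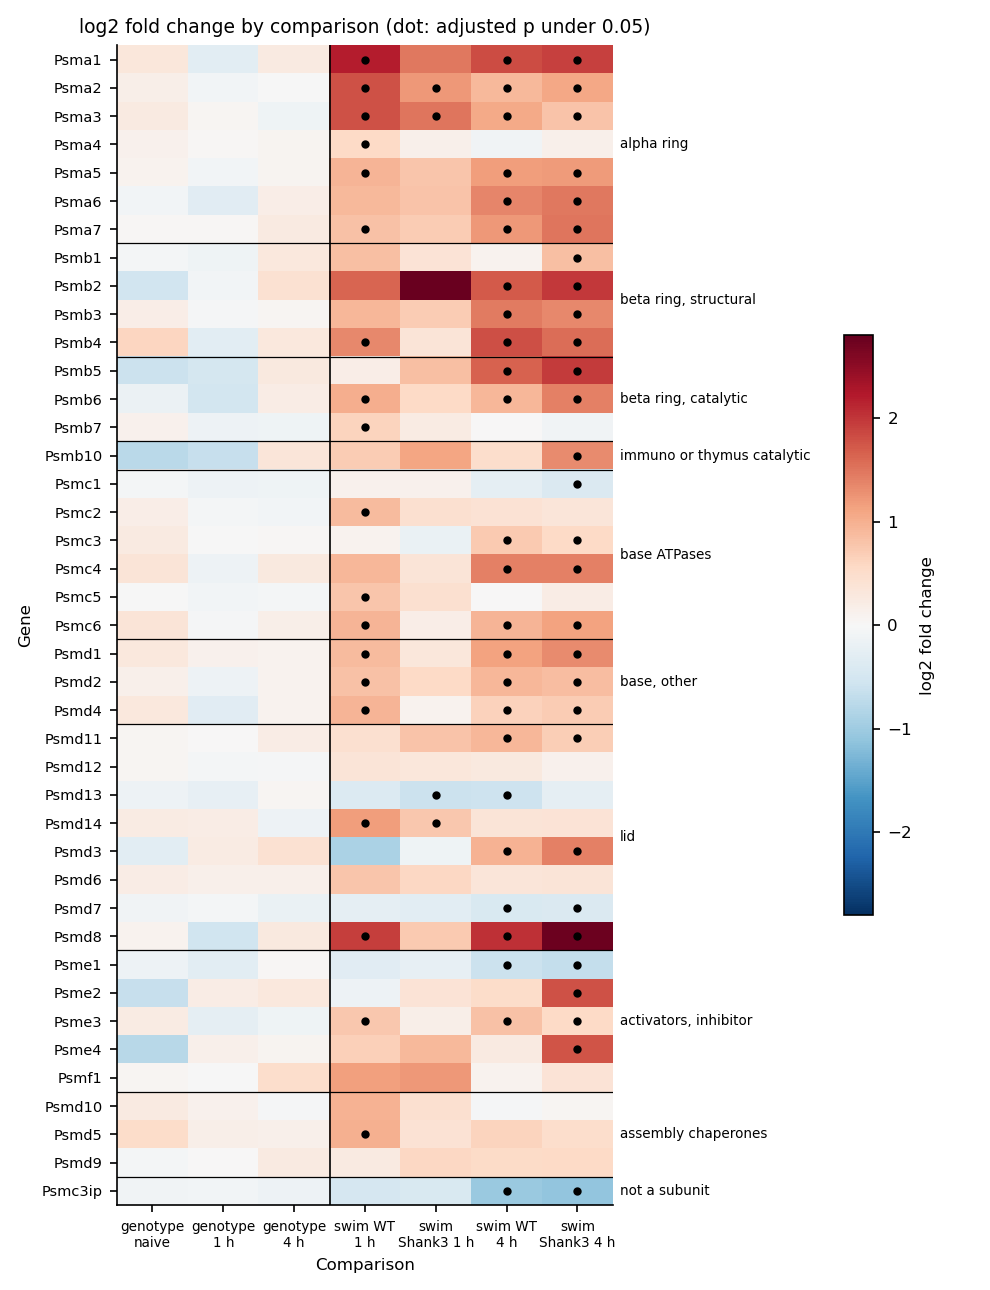
Log2 fold changes of the 41 genes in the fit (rows, by role) in 3 genotype comparisons and 4 swim responses (columns), red for higher and blue for lower; a dot marks an adjusted p under 0.05 in edgeR. The 3 genotype columns hold no dot, and the 4 h columns hold 25 in WT and 29 in Shank3 mice.

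Complete separation of the libraries at 4 h was seen for 16 genes upward and 1 downward in WT mice, where 21.3% and 19.3% of all genes separated. In Shank3 mice it was seen for 17 upward and 3 downward, where 20.5% and 19.8% did. Leaving out single libraries gave 19 to 26 called genes in WT and 25 to 29 in Shank3 mice. In WT mice 18 of the 25 calls and in Shank3 mice 24 of the 29 were kept whichever library was left out.

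The calls that were lost at 4 h depended on the following libraries. In WT mice Psma2 and Psmd13 lost the threshold without WT naive replicate 4 (edgeR adjusted p = 0.0552 and 0.153), and Psmd3 without WT 4 h replicate 5 (0.110). Psmd4 and Psmb2 lost it without either of these libraries (adjusted p 0.0934 to 0.113 and 0.0938 to 0.129). Psme1 lost it without WT naive replicate 4 or 7 or WT 4 h replicate 5 (0.0580 to 0.0757), and Psmd7 without WT naive replicate 4, 5 or 7 or WT 4 h replicate 3 or 5 (0.0638 to 0.116). In Shank3 mice Psmb1 lost it without Shank3 naive replicate 4 (0.0636) and Psmd4 without Shank3 naive replicate 6 (0.0731). Psmd11 lost it without Shank3 naive replicate 4 or 5 or Shank3 4 h replicate 3 or 5 (0.0544 to 0.176). Psmd7 and Psmb10 lost it without Shank3 naive replicate 4 or 7 or Shank3 4 h replicate 1, 3 or 5 (0.0613 to 0.120 and 0.0552 to 0.122). Psme2 passed the threshold in WT mice without WT naive replicate 7 (log2 fold change 1.43, adjusted p = 0.0298).

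**Figure D4:**
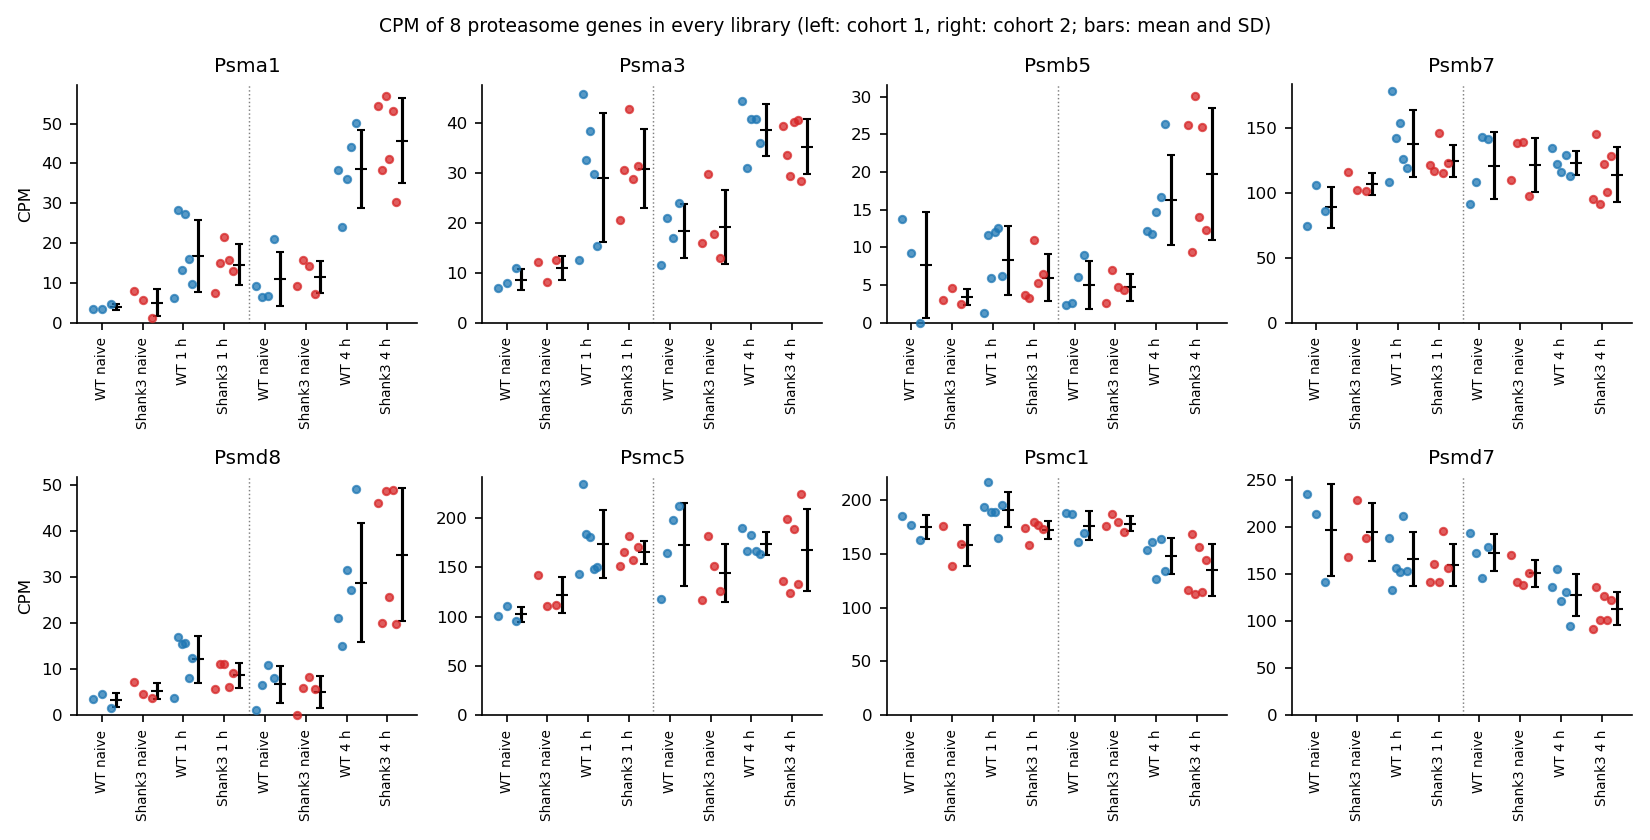
CPM of Psma1, Psma3, Psmb5, Psmb7, Psmd8, Psmc5, Psmc1 and Psmd7 in each of the 36 libraries by group, with mean and SD; blue is WT, red is Shank3, and the dotted line parts the cohorts. Psma1, Psmb5 and Psmd8 are highest at 4 h, the WT 4 h libraries of Psmb7 and Psmc5 lie within the range of the WT naive libraries of cohort 2, and Psmc1 and Psmd7 are lower at 4 h in Shank3 mice.

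The pair share moved with the 4 h rise from library to library. Shank3 4 h replicates 1, 3 and 5 had pair shares of 30.1% to 33.1% and scores of 0.63 to 0.75, and replicates 2, 4 and 6 had 17.5% to 21.8% and 0.37 to 0.48. In WT 4 h mice replicate 5 had the highest of both, 31.7% and 0.70. Without the 4 libraries above 25%, an alternative chosen after seeing the data, 20 genes rose and 2 fell in WT mice, where 27% and 26.9% of all genes did. In Shank3 mice 19 rose and 1 fell, where 19.1% and 22.1% did. Of the rises in all libraries, 20 of 21 and 17 of 25 were kept.

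With the pair share as a term in the model, no proteasome gene passed the threshold at 4 h in either genotype, where 4.09% of all genes rose and 3.6% fell in WT and 0.362% and 0.168% in Shank3 mice. Of the 21 rises in WT mice 19 stayed above 0, and their median went from 1.13 to 0.41. Of the 25 in Shank3 mice 20 stayed above 0, and their median went from 1.34 to 0.27. The lowest adjusted p was 0.0583 in WT and 0.102 in Shank3 mice (edgeR). The naive libraries of cohort 2 had pair shares of 11.8% to 15.0% and the 4 h libraries 17.0% to 33.1%, with no overlap.

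**Figure D5:**
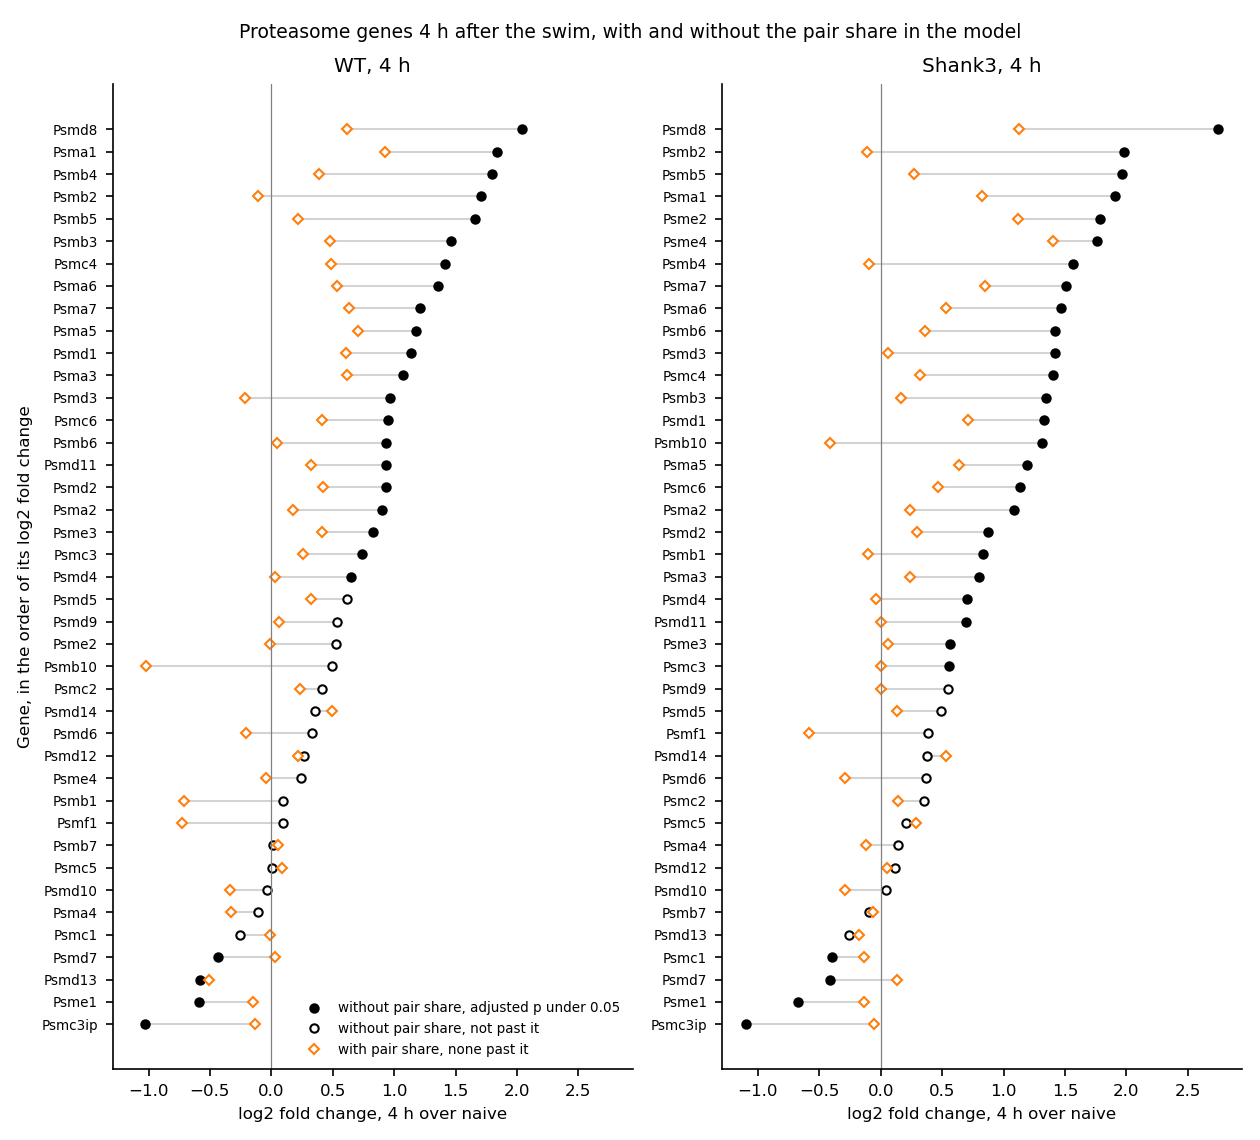
Log2 fold change at 4 h of the 41 genes in WT (left) and Shank3 (right) mice, without the pair share (circles, filled for adjusted p under 0.05) and with it as a term (orange diamonds), in the order of the first. The rises shrink with the term, to medians of 0.41 and 0.27 for the genes that had risen, and no diamond is past the threshold.

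Genes were also counted by whether another gene faces them. At 1 h 11 of the 24 proteasome genes that face no gene rose and none fell in WT mice, where 21.6% and 5.56% of all genes of that class did. In Shank3 mice none rose or fell, where 5.27% and 2.41% did. At 4 h 14 rose in WT mice (58.3%) and 16 in Shank3 mice (66.7%), against 38.4% and 44.8% of the class. Psmd7 fell in WT and Psmc1 and Psmd7 in Shank3 mice, where 11.6% and 11.7% of the class fell. Their median log2 fold changes were 0.88 and 0.85, against 0.58 and 0.62 for the class. Of the 13 genes with an exon opposite another gene 5 rose and 3 fell in WT mice, against 19.7% and 42.7% of the class. In Shank3 mice 6 rose and 2 fell, against 20.7% and 47.2%. When scaling and fit used genes with no opposite gene alone, only Psma1 of those 11 rises in WT mice at 1 h was kept. In that fit 1 of 23 proteasome genes rose and 1 fell at 1 h in WT mice, where 8.61% and 10% of the genes did, and none in Shank3 mice, where 1.69% and 2.49% did. At 4 h 9 of 23 proteasome genes rose and 2 fell in WT mice, where 19.8% and 22.5% of the genes did. In Shank3 mice 11 rose and 2 fell, where 25.4% and 25.7% did. Psma1, Psma7, Psmb3, Psmb4, Psmb5, Psmc4, Psmc6, Psmd2 and Psmd8 rose in both genotypes in that fit.

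Leaving out the 3 libraries with over 10% ribosomal RNA counts (Shank3 naive replicates 6 and 7 and WT 1 h replicate 5), also chosen after seeing the data, left 19 called genes in Shank3 mice at 4 h. Of all genes 21.4% then rose and 23% fell there.

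Psme4, Psme2, Psmb1 and Psmb10 passed the threshold at 4 h in Shank3 mice alone, but the difference between the genotypes' responses did not pass it for any gene. In edgeR 0 of 41 interactions had an adjusted p under 0.05 at 1 h or 4 h, where 0% of all genes did, and DESeq2 called no proteasome gene either. In edgeR an unadjusted p of 0.05 was passed by 0 genes at 1 h and by 1 at 4 h. That gene was Psme4, with a log2 difference of 1.52 (SE 0.54, edgeR adjusted p = 1). Its Shank3 naive libraries of cohort 2 held only 1, 8, 5 and 0 counts of Psme4. For Psme2 the difference was 1.26 (SE 0.73), for Psmb1 0.74 (SE 0.39) and for Psmb10 0.82 (SE 0.80). At 1 h the lowest p was that of Psmd4, with -0.85 (SE 0.43, edgeR adjusted p = 1), so the larger count of rises in WT mice at 1 h was not shown to be a difference between genotypes. The median standard error of the interaction was 0.513 at 1 h and 0.384 at 4 h, giving 95% margins of 1.05 and 0.787.

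The 4 h response exceeded the 1 h response, averaged over genotypes, for 2 genes and was below it for none, where edgeR called 12.4% of all genes (3.74% above and 8.61% below). These were the lid subunit Psmd3, at 1.70 (SE 0.37, adjusted p = 0.0027), and the ATPase Psmc3, at 0.69 (SE 0.19, adjusted p = 0.0145). For Psmd3 WT naive replicates 1 to 3 were at 29.4, 25.3 and 17.3 CPM and WT 1 h libraries at 8.52 to 14.9 CPM, with every 1 h library below every naive one. Both genes have an exon opposite another gene. The call of Psmc3 was lost without WT naive replicate 2 (adjusted p = 0.0581), and counts of called genes were 1 without that library, 4 without WT 4 h replicate 2, 6 without Shank3 4 h replicate 2 and 5 without Shank3 4 h replicate 6. The balance turned under other settings. When genes without an opposite gene were fitted alone, none of 23 was above and Psmc1 (-0.59) and Psmc5 (-0.61) were below, where 3.66% and 9.05% of genes were. With the pair share as a term Psmd3 (0.96) was above and Psmf1 (-1.47) and Psma3 (-1.02) were below, where 2.52% and 3.69% of all genes were. In WT mice 13 genes rose at both times. Psma4, Psmb7, Psmc2, Psmc5, Psmd14 and Psmd5 passed at 1 h and not at 4 h, and 8 passed at 4 h and not at 1 h, but except for Psmd3 and Psmc3 no difference between the times passed the test on all genes without that term.

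Other genes of the ubiquitin pathway, on lists chosen for comparison, moved in both directions at 4 h. Among 9 proteasome-associated genes in the fit, 3 rose and 2 fell in WT and 4 rose and 3 fell in Shank3 mice. Adrm1, the ubiquitin receptor Rpn13, rose by 2.08 (SE 0.47, edgeR adjusted p = 0.000354) and 1.86 (SE 0.43, adjusted p = 0.000339) on the log2 scale. Pomp, the maturation factor of the core, rose by 1.05 and 1.37. Ube3c, a ligase that works on the proteasome, rose by 1.37 and 1.11. The small lid subunit Sem1 fell by 0.43 and 0.63, and was at 0.32 and 0.31 with total counts only.

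Of 5 ubiquitin and E1 genes 2 rose in WT and 3 in Shank3 mice and none fell, led by the polyubiquitin gene Ubb at 1.51 and 1.91 and the activating enzyme Uba1 at 1.19 and 1.49 on the log2 scale. Nfe2l1, the activator named with the promoters and chosen after its values were seen, had log2 fold changes of 0.18 (SE 0.17) and -0.07 (SE 0.17), neither past the threshold.

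Of 11 genes of the segregase p97 and its cofactors 6 rose and 2 fell in each genotype. Ube4b rose by 1.11 and 1.34, Vcp, which encodes p97, by 1.1 and 1.21, and Ufd1 by 1.65 and 0.73. Ubxn6 fell by 1.08 and 0.95, but in Shank3 mice was at 0.02 with total counts only. Of 26 E2 conjugating enzymes 15 rose and 1 fell in WT and 17 rose and 2 fell in Shank3 mice, with Ube2s falling by 1.28 and 1.29 on the log2 scale. Of 20 E3 ligases 13 rose and 3 fell, and 12 rose and 3 fell. Nedd4l, a ligase of ion channels, rose by 1.01 and 1.21, and the chaperone-linked Stub1 fell by 1.15 and 1.18. Of 15 deubiquitinases 9 rose and 1 fell in WT and 6 rose and 1 fell in Shank3 mice. Uchl1, an abundant neuronal enzyme, rose by 1.41 and 1.60, Usp22 by 1.63 and 2.21 and Usp5 by 1.16 and 1.4. With the pair share in the model, 1 E3 ligase rose past the threshold at 4 h in WT mice. In the same fit 1 E3 ligase and 1 gene of the p97 list fell past it in WT mice. No other gene of these 6 lists passed it at 4 h in either genotype. Without that term the list counts above stand against 29% rising and 26.9% falling among all genes in WT and 32.7% and 29.4% in Shank3 mice.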

How the data were processed

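RNA from 36 anti-HA immunoprecipitates was sequenced in pairs of 100-base reads, per the labels' protocols. The authors deposited whole-number counts per gene. The submitters' processing notes name Trimmomatic 0.39, FastQC, HISAT2 2.2.0, StringTie 2.1.3, Salmon 1.4, DESeq2 and the build mm10, with no roles. The counting setting for strand is not given in the sources used here.

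Counts were tested with edgeR 4.0.16 in R 4.3.3 (TMM scaling, filterByExpr with a minimum count of 10, robust quasi-likelihood fit on 8 cells of genotype, treatment and cohort, 28 residual degrees of freedom). Benjamini-Hochberg adjustment ran over 11341 genes in each of 10 comparisons, at a threshold of 0.05. A standard error is the size of the log2 fold change divided by the root of the F statistic, and can be too small for genes of low counts. CPM values were computed from the deposited counts with TMM-scaled library sizes. Scaling factors ran from 0.498 to 1.82, and the biological coefficient of variation was 24.2%. Exon lengths and strand overlaps came from GENCODE on GRCm38. Alternatives were DESeq2 1.42.0, DESeq2-type size factors, total counts only, no low-count filter, the pair share as a term, genes with no opposite gene, an additive cohort term, a replicate block, and leaving out each library.

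Members and lists were chosen with earlier results of these data known. Genes named are those past the threshold, those of lowest p where fewer than 2 passed, the catalytic and immunoproteasome subunits, activators, the highest and lowest of each role, and up to 3 genes a pathway list at 4 h. Psmd6, Psmd12 and Psmf1 and the non-passing ATPases and chaperones were added to complete their roles, and all called members are named. The counts of the list of shuttle factors and regulators are not reported here.

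In 68 pairs of libraries of the same group the counts differed by more than sampling noise (chi-square per degree of freedom 1.46 to 81.6). On simulated counts for WT mice at 4 h over 11341 genes, the test recovered 4.48% of genes changed 1.5-fold, 34.3% changed 2-fold and 77.3% changed 3-fold, and called 5 unchanged genes. Only 67, 67 and 66 genes were changed at these sizes, whereas 56% of all genes were called in the data. The adjusted threshold depends on that share, so these rates do not give the recovery in the data.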

Additional observations from a re-analysis of the deposited data

Results flagged for a closer look

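In 9 of 186 groups of 4 to 6 libraries examined over 30 proteasome genes, 1 library stood apart from the others by Dixon's criterion at 95%. Chance flags about 1 group in 20.

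Shank3 1 h replicate 3 was the high library for 3 genes. It had 46.9 CPM of Psma2 against 24.8 to 27.1 in the others, 32.2 CPM of Psmd1 against 21.7 to 23.5, and 29.9 CPM of Psmd11 against 15.6 to 17.9. Shank3 naive replicate 5 was high for Psmb6, at 20.55 CPM against 11.5 to 11.9, and for Psme3, at 35.15 CPM against 25.8 to 27.3. WT 4 h replicate 5 had 53.7 CPM of Psmb1 against 24.9 to 29.3, and was also the WT library of highest pair share.

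Low values set the other cases. WT naive replicate 4 held no count of Psmb2, at 0 CPM against 2.63 to 2.99. WT 1 h replicate 1 had 2.52 CPM of Psmd11 against 17.2 to 24.4, and WT 1 h replicate 2 had 8.52 CPM of Psmd3 against 12.6 to 14.9.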

How the results depend on the processing

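No proteasome gene passed the threshold in a genotype comparison or an interaction under any alternative, leaving out each of the 36 libraries included. Whether replicate numbers pair libraries was not settled: deviations correlated above 0.1 in 8 of 28 same-numbered pairs (-0.25 to 0.73). The highest values, 0.69 and 0.73, were those of replicates 2 and 5 between WT 4 h and Shank3 4 h libraries. With the replicate block, called genes were 1 in Shank3 mice at 1 h and 1 for 4 h less 1 h. With the pair share as a term, called genes were 9 in WT mice at 1 h and 0 at 4 h in either genotype. In the fit of genes with no opposite gene they were 2 and 0 at 1 h and 11 and 13 at 4 h in WT and Shank3 mice; it holds 23 of the 41 genes. Shank3 mice at 1 h had 12 with total counts only, 11 with an additive cohort term, 2 without the libraries rich in ribosomal RNA and 8 without those of high pair share. The last 2 settings gave 1 each for 4 h less 1 h, and the first of them 19 in Shank3 mice at 4 h. Leaving out single libraries gave 7 to 24 in WT and 0 to 6 in Shank3 mice at 1 h, and 1 to 6 for 4 h less 1 h. The cause was not tested. DESeq2 called 14 genes rising and 0 falling in WT and 5 and 1 in Shank3 mice at 1 h, and 23 and 4 and 28 and 3 at 4 h. Of the genes with a DESeq2 adjusted p it called 14.2% and 20.8%, 9.44% and 15.2%, 31.7% and 25.7%, and 36.3% and 27.6%. These genes numbered 10681 in WT and 7603 in Shank3 mice at 1 h, and 11341 in each genotype at 4 h.

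Signs turned with total counts only for Psmd13 (0.23), Psme1 (0.16) and Psmd7 (0.31) in WT and Psme1 (0.31), Psmc1 (0.53) and Psmd7 (0.54) in Shank3 mice at 4 h. They turned with the pair share as a term for Psmd3 (-0.21), Psmb2 (-0.11) and Psmd7 (0.0293) in WT, and for Psmb4 (-0.10), Psmb2 (-0.11), Psmb1 (-0.11), Psmd4 (-0.0419), Psmd7 (0.13) and Psmb10 (-0.42) in Shank3 mice. Mean scores with total counts only were -1.20 in WT naive and -0.93 in Shank3 naive mice of cohort 1, -0.62 in Shank3 naive mice of cohort 2, 0.94 in WT and 1.11 in Shank3 4 h mice. Depth limits the genes of few counts: Psmb2, Psmb10, Psme2 and Psmb5 lie near the floor in most naive libraries. The rises of Psma1 and Psmd8 also start from few counts. In WT naive replicates 1 to 3 Psma1 held 2, 3 and 3 counts and Psmd8 held 2, 4 and 1.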
